A study of Mus musculus with 9 samples.

Results

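The genes described here are 35 mouse genes of cholesterol and fatty acid synthesis and of their control, chosen by name, of 18193 genes that the arrays read by a probe set of their own. They comprise 8 enzymes of the route to squalene, 10 of the steps between squalene and cholesterol, 4 genes of SREBP control and sterol transport, 8 fatty acid enzymes and 5 genes of the liver X receptor (LXR) system. On the arrays, 33 of the 35 had a probe set annotated with that gene alone, in 74 probe sets of the 45037 tested. Acat2, which makes acetoacetyl-CoA, and Nr1h2, which encodes LXR beta, had none and were not analysed here.

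Expression was measured in neurospheres of adult mouse olfactory bulb stem cells (aOBSCs) on 9 Affymetrix Mouse Genome arrays, 3 per condition. FGF-2 and EGF, the mitogens that keep these cells dividing, were given at the same dose in all conditions, once a day in Ctr, at intervals of 2 days in C2 and at intervals of 4 days in C4. The labels name no transgene, deletion or drug in any condition. Every condition was grown in serum-free DMEM/F12 with insulin, apotransferrin, putrescine, progesterone and selenite. The cells had been kept for earlier passages with daily factors and then for additional passages at the interval of their condition. The medium was not changed within a passage. When the neurospheres were collected, C4 cells had gone longer without a new addition than C2 cells, so the interval and the time since the last addition cannot be told apart. The cells came from adult CD1 or C57Bl/6 mice of several ages, and the labels do not say which array came from which mice. The replicates are labelled as biological without a statement of separate cultures or animals, so p-values measure the spread between these arrays.

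Cholesterol is made from acetyl-CoA through mevalonate, isoprenoids, squalene and a series of sterols, and fatty acids are made from the same precursor by carboxylation, chain synthesis, elongation and desaturation. The transcription factors SREBP-2 and SREBP-1, encoded by Srebf2 and Srebf1, switch on the sterol and the fatty acid enzymes when membranes are poor in sterol, and INSIG proteins hold them in the endoplasmic reticulum when sterol is plentiful. LXRs are activated by oxysterols and switch on sterol exporters such as Abca1. Neural cells in the brain make nearly all of their own cholesterol.

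Values are GCRMA signals on the log2 scale, so a difference of 1 is a doubling. Each gene is given by whichever of its probe sets had the highest mean, and a difference was called when its limma p-value, adjusted over all 45037 probe sets, was under 0.05. Levels of different probe sets cannot be set against each other. Of the 33 genes, 30 gave a signal over 4 on at least 3 arrays. Nr1h3, which encodes LXR alpha, had the lowest value of the scale, 2.27, on each of the 9 arrays. The exporter Abcg1 stood at 2.27 on 8 arrays and at 2.34 on 1 C2 array. Mylip, a ubiquitin ligase that removes lipoprotein receptors, ranged between 3.72 and 4.15. These 3 genes are counted below among those not called.

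Arrays of the same condition correlated with r of at least 0.99769. Stem and progenitor cell markers were present, with 10 of 11 over a signal of 4. Neuronal markers passed that limit for 1 of 7 genes, microglial markers for 1 of 9 (Cd68), and endothelial and fibroblast markers for 0 of 8. The oligodendrocyte genes Mag, Mog, Mobp and Myrf were at the lowest value.

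In C4 neurospheres 6 of the 33 genes rose above Ctr, the sterol enzymes Fdft1, Tm7sf2, Nsdhl and Dhcr7, the desaturase Fads2 and the exporter Abca1. None was called lower in C4 by limma, and at an unadjusted p under 0.05 the numbers were 18 higher and 1 lower. The share of all probe sets at the unadjusted p, or with a given sign, was not counted here or below. Counts of those 2 kinds therefore stand without a background. The background was 6.29% of all probe sets called in C4, 3.78% higher and 2.51% lower, and among the 18380 probe sets with a signal over 4 it was 15.0%, 9.04% higher and 5.98% lower. The 6 genes make 18.2% of the 33. The median difference over the 33 genes was 0.14, against 0 over all probe sets and 0.037 over those with a signal over 4. In C2 neurospheres 1 gene rose relative to Ctr, Abca1, and 2 fell, the lanosterol synthase Lss and the sterol carrier Stard4, against 1.70% of all probe sets called, 1.13% higher and 0.577% lower. Among probe sets with a signal over 4 that background was 4.06%, 2.71% higher and 1.35% lower. The median difference of C2 from Ctr was -0.16 over the 33 genes, and 26 of them lay below Ctr and 6 above.

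The most calls among these genes came when C4 was set directly against C2. Here 16 of the 33 genes were higher in C4, which is 48.5%, against 2.86% of all probe sets higher, 2.39% lower and 5.25% called in all. Among probe sets with a signal over 4 the background was 6.82% higher, 5.73% lower and 12.6% in all. None was called lower in C4 by limma, also at an unadjusted p under 0.05, where 23 were higher. The median difference was 0.29, against 0 over all probe sets. No gene of the 33 differed by 1 or more on the log2 scale in any of the 3 comparisons, so every change described here is less than 2-fold for the probe set of highest mean. C4 and C2 share the Ctr arrays as their reference, and the values of each comparison are therefore given side by side.

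**Figure D1:**
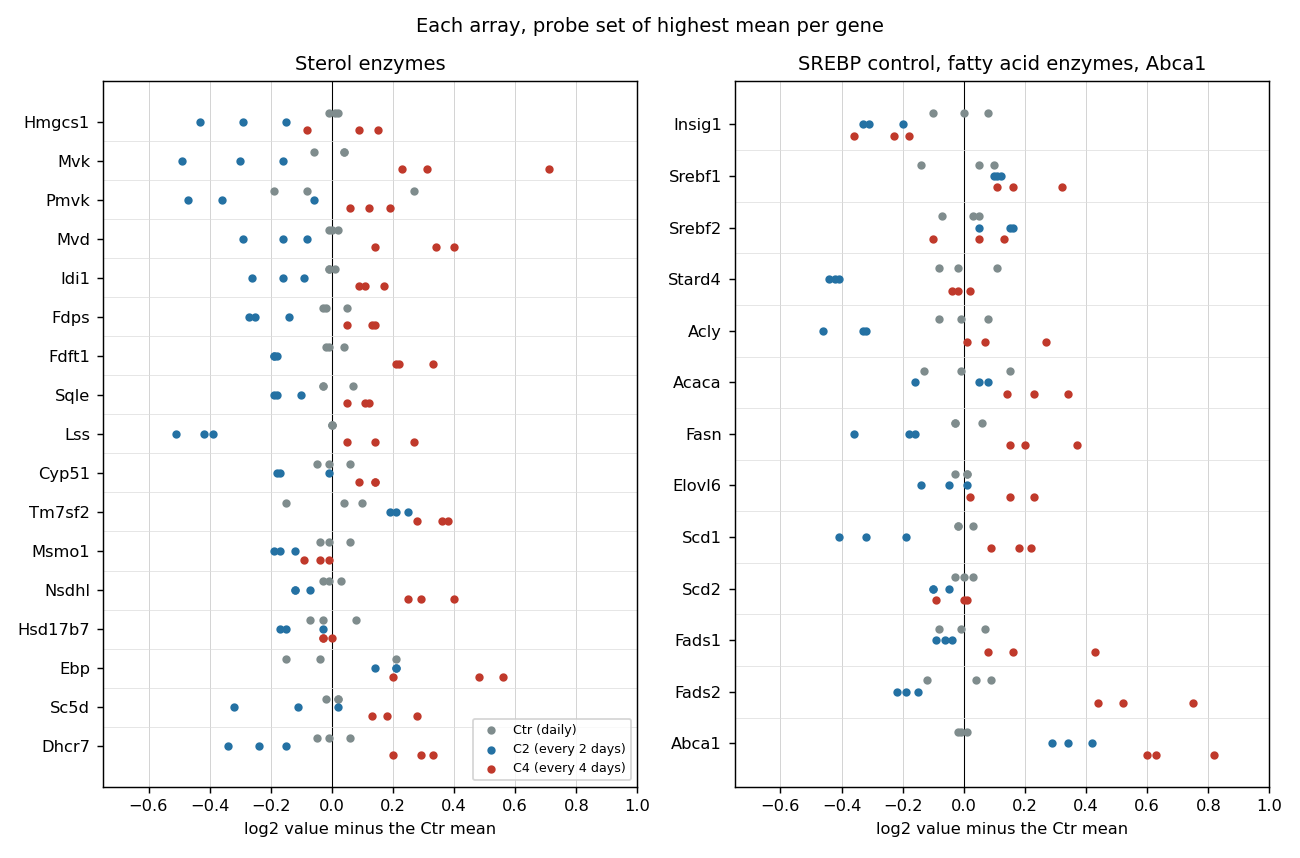
Log2 value of each array minus the Ctr mean of the same gene, for the 30 genes with a signal over 4; grey points are Ctr arrays, blue points C2 arrays and red points C4 arrays. For most sterol and fatty acid enzymes the blue points lie left of the zero line and the red points right of it, while both blue and red points of Abca1 lie right of it.

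The first enzymes of the route lead from acetyl-CoA to squalene. Hmgcs1, which makes HMG-CoA, had values of 13.53, 13.50 and 13.52 on the Ctr arrays, 13.36, 13.22 and 13.08 on the C2 arrays and 13.60, 13.43 and 13.66 on the C4 arrays. All C2 arrays lay below all others, and the C4 and Ctr arrays overlapped. The difference of this probe set was 0.05 for C4 against Ctr (limma adjusted p = 1) and -0.29 for C2 against Ctr (adjusted p = 0.211), so it was called in neither. It lies near the top of the scale, and dimmer probe sets of Hmgcs1 moved further, as given below.

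The promoter of Hmgcs1 is shown because it was the only one among those matched with an exact match to the classic sterol regulatory element to which SREBPs bind. The sequence runs 250 bases before to 50 bases after the start in RefSeq GRCm38.p6, chr13:119690101-119690400 on the plus strand. Capitals mark the sterol regulatory element (TCACNCCAC) and 4 CCAAT boxes, which read ATTGG where they lie on the other strand.
Hmgcs1: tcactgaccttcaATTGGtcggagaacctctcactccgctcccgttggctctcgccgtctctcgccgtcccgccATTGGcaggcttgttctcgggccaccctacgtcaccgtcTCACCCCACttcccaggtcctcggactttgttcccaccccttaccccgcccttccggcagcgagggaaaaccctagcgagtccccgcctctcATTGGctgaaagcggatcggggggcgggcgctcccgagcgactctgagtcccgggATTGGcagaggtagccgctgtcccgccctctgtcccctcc
The first base of the element lies at -137 from the start. TCACNCCAC, searched on both strands with N as any base, was present in 1 of the 27 member genes that had a promoter entry, and in 1.44% of all 27025 genes. Elements that depart from these letters or lie outside the window are not found by that search, so the other promoters are not shown to lack them.

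Downstream of Hmgcs1, the mevalonate kinase Mvk had values of 6.37, 6.37 and 6.27 on the Ctr arrays, 6.03, 5.84 and 6.17 on the C2 arrays and 7.04, 6.64 and 6.56 on the C4 arrays. The 3 conditions did not overlap, with C2 lowest and C4 highest. The difference was 0.73 for C4 against C2 (SE 0.14, adjusted p = 0.0341, 1.66-fold), and it was not called for C4 against Ctr (0.41, adjusted p = 0.198) or C2 against Ctr (-0.32, adjusted p = 0.53). Its call was lost without any 1 Ctr or C2 array or C4 replicate 2 (adjusted p between 0.0545 and 0.108). The other probe set of Mvk, 1418052_at, differed by 0.47 in C4 against C2 without a call (adjusted p = 0.33). Its C2 arrays overlapped both the Ctr and the C4 arrays. Pmvk, the next kinase, was 0.42 higher in C4 than in C2 but was not called (adjusted p = 0.254). Mvd, which removes the carboxyl group and yields the first isoprenoid, was 0.47 higher in C4 than in C2 (SE 0.079, adjusted p = 0.0211), a call lost without C2 replicate 1 or 3 or C4 replicate 1 or 3 (adjusted p between 0.0618 and 0.0689). The other probe set of Mvd, 1417303_at, differed by 0.39 in C4 against C2 without a call (adjusted p = 0.263). In C2 against Ctr it differed by 0.10, where the representative differed by -0.18. Idi1, the isopentenyl diphosphate isomerase, was 0.29 higher (SE 0.042, adjusted p = 0.0106), and Fdps, the farnesyl diphosphate synthase, 0.33 higher (SE 0.045, adjusted p = 0.00926).

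Fdft1 encodes squalene synthase, the enzyme that commits farnesyl units to sterols. Its values were 11.06, 11.05 and 11.11 on the Ctr arrays, 10.88, 10.89 and 10.88 on the C2 arrays and 11.28, 11.40 and 11.29 on the C4 arrays. The conditions did not overlap, again with C2 lowest and C4 highest. Fdft1 rose by 0.24 in C4 relative to Ctr (SE 0.034, adjusted p = 0.00914, 1.19-fold) and was 0.44 higher in C4 than in C2 (SE 0.034, adjusted p = 0.00103, 1.35-fold). Its difference of -0.19 between C2 and Ctr was not called (adjusted p = 0.0557). These values come from a probe set that may read other transcripts (1438322_x_at). The other one, 1448130_at, differed by 0.13 in C4 against Ctr without a call (adjusted p = 0.0783), by -0.26 in C2 against Ctr (adjusted p = 0.0176) and by 0.39 in C4 against C2 (adjusted p = 0.00124). The C4 call against Ctr was lost under 3 of the alternatives (without probe sets of this kind, with a robust prior and with only the arrays of both conditions), with adjusted p up to 0.0957. Of the 7 measured enzymes up to squalene, 1 rose in C4 against Ctr, none was called in C2 against Ctr and 5 were higher in C4 than in C2. For C4 against Ctr and C4 against C2 that is 14.3% and 71.4%, beside 9.04% and 6.82% of all probe sets with a signal over 4. At an unadjusted p under 0.05 the counts were 5 higher in C4 against Ctr, 0 higher and 4 lower in C2 against Ctr, and 7 higher in C4 against C2. The signs ran one way for all 7, above 0 for C4 against Ctr and below 0 for C2 against Ctr.

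The steps after squalene begin with Sqle, the squalene epoxidase, which was 0.25 higher in C4 than in C2 (SE 0.04, adjusted p = 0.0155) and was not called against Ctr in either condition. Its call was lost without C2 replicate 1 or 2 or C4 replicate 1 or 3 (adjusted p between 0.0539 and 0.0643). Lss, which closes the ring and yields lanosterol, read 8.91 on each Ctr array, 8.40, 8.49 and 8.52 on the C2 arrays and 9.05, 8.96 and 9.18 on the C4 arrays. The 3 conditions did not overlap, and C2 stood further from Ctr than C4 did. Lss fell by 0.44 in C2 relative to Ctr (SE 0.058, adjusted p = 0.0225), differed by 0.16 in C4 relative to Ctr without a call (adjusted p = 0.247) and was 0.59 higher in C4 than in C2 (SE 0.058, adjusted p = 0.00245, 1.51-fold). The C2 call was lost when any 1 of the 6 C2 and Ctr arrays was left out, with adjusted p between 0.0621 and 0.0828. Cyp51, the lanosterol demethylase, was 0.24 higher in C4 than in C2 (SE 0.05, adjusted p = 0.0453), a call lost without any array except C2 replicate 1 (adjusted p up to 0.145).

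Nsdhl, a dehydrogenase that takes part in removing methyl groups from the sterol, had values of 10.13, 10.15 and 10.19 on the Ctr arrays, 10.04, 10.04 and 10.09 on the C2 arrays and 10.56, 10.45 and 10.41 on the C4 arrays. The C4 arrays were all higher than the rest by more than the spread within any condition. Nsdhl rose by 0.32 in C4 relative to Ctr (SE 0.04, adjusted p = 0.00598, 1.25-fold) and was 0.42 higher in C4 than in C2 (adjusted p = 0.00224). The difference of -0.10 between C2 and Ctr was not called (adjusted p = 0.438). Leaving out any 1 array kept both calls.

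Dhcr7 encodes the reductase that makes cholesterol in the last step of one branch. It read 8.60, 8.64 and 8.71 on the Ctr arrays, 8.31, 8.41 and 8.50 on the C2 arrays and 8.85, 8.98 and 8.94 on the C4 arrays, with no overlap between conditions. Dhcr7 rose by 0.27 in C4 relative to Ctr (SE 0.058, adjusted p = 0.0447) and was 0.52 higher in C4 than in C2 (SE 0.058, adjusted p = 0.00452, 1.43-fold), and its difference of -0.25 between C2 and Ctr was not called (adjusted p = 0.129). The call against Ctr was lost without Ctr replicate 1, 2 or 3, C2 replicate 2 or C4 replicate 1, 2 or 3, with adjusted p between 0.0516 and 0.142.

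Tm7sf2, a sterol reductase, followed another order. Its values were 7.75, 7.56 and 7.81 on the Ctr arrays, 7.90, 7.96 and 7.92 on the C2 arrays and 8.07, 8.09 and 7.99 on the C4 arrays. Both C2 and C4 lay above Ctr, with C2 between Ctr and C4. It rose by 0.34 in C4 relative to Ctr (SE 0.065, adjusted p = 0.0289), a call lost without Ctr replicate 1 or any 1 C2 or C4 array (adjusted p between 0.0507 and 0.0982), and its 0.22 in C2 was not called (adjusted p = 0.235). The sterol isomerase Ebp also lay above Ctr in C2 (0.18) as well as in C4 (0.41), with neither difference called. Msmo1, the methylsterol oxidase, differed by -0.05 between C4 and Ctr and by -0.16 between C2 and Ctr, Hsd17b7, a ketosteroid reductase, by -0.01 and -0.11, and Sc5d, a desaturase, by 0.19 and -0.14, all without a call.

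Over the 17 measured sterol enzymes, 4 rose in C4 against Ctr with a median difference of 0.16, 1 fell in C2 against Ctr with a median of -0.17, and 10 were higher in C4 than in C2 with a median of 0.33. In that order the shares were 23.5%, 5.88% and 58.8%, beside 9.04%, 1.35% and 6.82% of all probe sets with a signal over 4. The differences were above 0 for 15 of 17 in C4 against Ctr, below 0 for 15 of 17 in C2 against Ctr, and above 0 for all 17 in C4 against C2. None of the 17 was called higher in C2 against Ctr by limma, and 1 was at an unadjusted p under 0.05, Tm7sf2, against 9 lower.

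Insig1, whose product retains SREBPs in the endoplasmic reticulum and which is itself an SREBP target, did not follow the enzymes. Its values were 11.74, 11.66 and 11.56 on the Ctr arrays, 11.33, 11.46 and 11.35 on the C2 arrays and 11.48, 11.30 and 11.43 on the C4 arrays. Both C2 and C4 lay below Ctr on all arrays and overlapped each other. The differences of -0.25 for C4 against Ctr (SE 0.067, adjusted p = 0.0921) and -0.27 for C2 against Ctr (adjusted p = 0.139) were not called. C4 and C2 differed by 0.02 (95% interval -0.14 to 0.18).

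Neither SREBP gene was called in any comparison. Srebf1 differed by 0.19 between C4 and Ctr (95% interval 0.01 to 0.38) and by 0.11 between C2 and Ctr, and Srebf2 by 0.02 (-0.13 to 0.18) and 0.12. A second probe set of Srebf2 of similar brightness, 1452174_at, differed by 0.32 in C4 against Ctr (95% interval 0.01 to 0.63, adjusted p = 0.302) and by 0 in C2 against Ctr. The mRNA of a factor that is activated by cleavage does not report its activity.

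Stard4, a cytosolic sterol carrier and SREBP-2 target, had values of 9.35, 9.48 and 9.29 on the Ctr arrays, 8.96, 8.95 and 8.93 on the C2 arrays and 9.39, 9.33 and 9.35 on the C4 arrays. The C2 arrays stood apart below, and the C4 and Ctr arrays overlapped. Stard4 fell by 0.43 in C2 relative to Ctr (SE 0.047, adjusted p = 0.0124) and was 0.41 higher in C4 than in C2 (SE 0.047, adjusted p = 0.00452), with a difference of -0.01 between C4 and Ctr (95% interval -0.12 to 0.10). Without C2 replicate 3 its C2 call was lost (adjusted p = 0.0538).

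**Figure D2:**
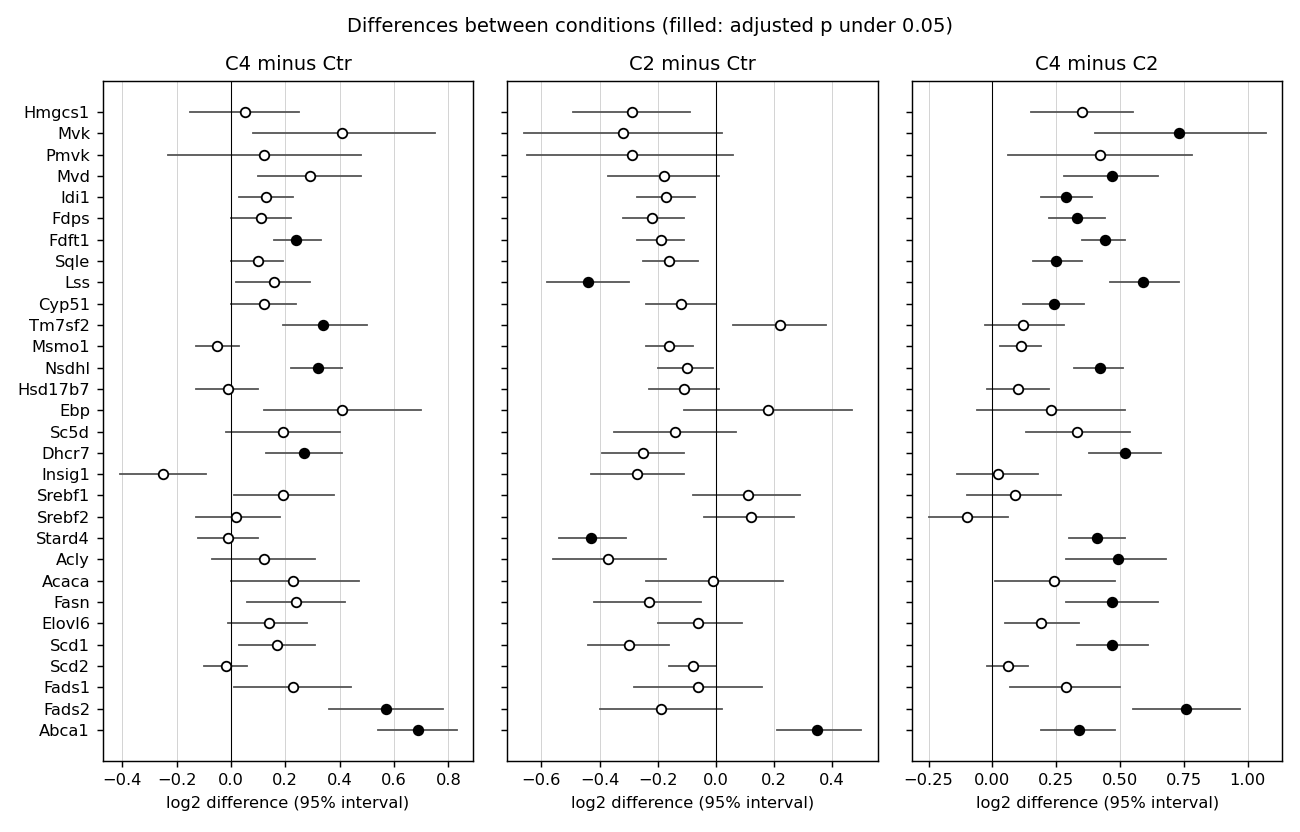
Log2 difference of each gene with its 95% interval for C4 minus Ctr (left), C2 minus Ctr (middle) and C4 minus C2 (right); filled circles mark an adjusted p under 0.05. The left panel has 6 filled circles, all right of zero, the middle panel has Lss and Stard4 left and Abca1 right of zero, and the right panel has 16, all right of zero.

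Of the 8 fatty acid enzymes, Acly, Fasn, Scd1 and Fads2 were higher in C4 than in C2, and Acaca, Elovl6, Fads1 and Scd2 were not called. Acly, which makes cytosolic acetyl-CoA from citrate and so feeds both pathways, had values of 10.15, 10.22 and 10.31 on the Ctr arrays, 9.77, 9.90 and 9.91 on the C2 arrays and 10.24, 10.30 and 10.50 on the C4 arrays. C2 lay below the others, and C4 and Ctr overlapped. Acly was 0.49 higher in C4 than in C2 (SE 0.08, adjusted p = 0.0191, 1.40-fold), a call lost without C4 replicate 2 or any 1 C2 array (adjusted p between 0.0504 and 0.0688). Its -0.37 in C2 against Ctr was not called (adjusted p = 0.101), while another probe set of similar brightness, 1439459_x_at, was called there (-0.51, adjusted p = 0.0232). Acaca, the carboxylase that makes malonyl-CoA, was called in no comparison, with 0.24 for C4 against C2 (adjusted p = 0.339).

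Fasn, the fatty acid synthase, read 9.20, 9.20 and 9.29 on the Ctr arrays, 8.87, 9.07 and 9.05 on the C2 arrays and 9.38, 9.43 and 9.60 on the C4 arrays, in 3 ranges that did not overlap. It was 0.47 higher in C4 than in C2 (SE 0.076, adjusted p = 0.0172, 1.39-fold) and was not called against Ctr in C4 (0.24, adjusted p = 0.165) or in C2 (-0.23, adjusted p = 0.297). Scd1, a desaturase that makes monounsaturated fatty acids, showed the same order, with 11.03, 11.03 and 11.08 in Ctr, 10.64, 10.73 and 10.86 in C2 and 11.23, 11.14 and 11.27 in C4. It was 0.47 higher in C4 than in C2 (SE 0.059, adjusted p = 0.00669). Scd2, the desaturase isoform of brain, averaged 14.66 on the Ctr arrays, 14.58 on the C2 arrays and 14.64 on the C4 arrays, near the top of the scale, and was not called (0.06 for C4 against C2, 95% interval -0.02 to 0.14). The elongase Elovl6 was 0.19 higher in C4 than in C2 without a call (adjusted p = 0.178).

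Fads2, the desaturase that starts the synthesis of long polyunsaturated fatty acids, had the largest difference of the fatty acid enzymes in C4. Its values were 9.21, 9.37 and 9.42 on the Ctr arrays, 9.18, 9.11 and 9.14 on the C2 arrays and 9.77, 9.85 and 10.08 on the C4 arrays. The C4 arrays were all above the rest, and the C2 arrays lay just below Ctr. Fads2 rose by 0.57 in C4 relative to Ctr (SE 0.089, adjusted p = 0.0143, 1.48-fold) and was 0.76 higher in C4 than in C2 (SE 0.089, adjusted p = 0.00538, 1.69-fold), with -0.19 in C2 against Ctr (adjusted p = 0.58). Both calls stood with any 1 array left out. Its neighbour in the pathway, Fads1, was not called (0.23 for C4 against Ctr, adjusted p = 0.29). Of the 8 fatty acid enzymes, 1 rose in C4 against Ctr, none was called in C2 against Ctr, where all 8 differences lay below 0 and 3 passed at an unadjusted p under 0.05, and 4 were higher in C4 than in C2. The rise against Ctr is 12.5%, near the 9.04% of all probe sets with a signal over 4. For C4 against C2 the shares were 50% and 6.82%.

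Abca1, the LXR target that exports cholesterol to apolipoproteins, was the only gene of the 33 whose probe set of highest mean was called in all 3 comparisons. It had values of 9.80, 9.79 and 9.82 on the Ctr arrays, 10.15, 10.23 and 10.10 on the C2 arrays and 10.41, 10.44 and 10.63 on the C4 arrays. The ranges did not overlap and followed the interval between additions, unlike those of the enzymes, of which C2 was mostly the lowest. Abca1 rose by 0.69 in C4 relative to Ctr (SE 0.06, 95% interval 0.54 to 0.83, adjusted p = 0.00153, 1.61-fold), the largest difference from Ctr among the 33 genes, and by 0.35 in C2 relative to Ctr (SE 0.06, adjusted p = 0.0465, 1.28-fold). It was 0.34 higher in C4 than in C2 (SE 0.06, adjusted p = 0.0258, 1.26-fold). The C4 call against Ctr stood with any 1 array left out (adjusted p up to 0.00994). The C2 call was lost without any array except C4 replicate 3 (adjusted p up to 0.154), and the call of C4 against C2 without Ctr replicate 1, 2 or 3, C2 replicate 1, 2 or 3 or C4 replicate 2 (adjusted p up to 0.0937).

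The promoter of Abca1 is shown beside that of Hmgcs1 because the gene moved in another way than the enzymes. It is the RefSeq GRCm38.p6 sequence of chr4:53159846-53160145 on the minus strand, and capitals mark an E-box (CACGTG), the only motif searched that was found in it.
Abca1: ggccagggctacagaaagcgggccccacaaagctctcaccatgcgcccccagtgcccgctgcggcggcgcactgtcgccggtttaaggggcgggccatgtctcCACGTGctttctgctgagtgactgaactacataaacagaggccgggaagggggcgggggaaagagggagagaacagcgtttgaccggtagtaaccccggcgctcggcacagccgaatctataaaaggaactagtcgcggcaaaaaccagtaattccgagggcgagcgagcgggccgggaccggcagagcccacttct
No CCAAT box was found. The DR4 element of LXR was searched only as an exact repeat of AGGTCA after 4 bases, which was present in 0 of the 27 member genes with an entry and in 0.0148% of all genes. The known LXR element of Abca1 is an imperfect repeat, which that search does not find. CACGTG was found in 5 of the 27 (Hsd17b7, Sc5d, Dhcr7, Insig1 and Abca1) and in 8.09% of all genes.

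CCAAT boxes, which bind NF-Y, a factor that works with SREBPs on sterol promoters, were the most common motif searched among the member promoters. CCAAT was present on either strand in 20 of 27 genes, or 74.1%, against 41.1% of all 27025 genes. It was found in 14 of the 15 sterol enzymes with an entry, in 2 of 5 fatty acid enzymes (Acly and Fasn), in the 3 SREBP control genes with an entry and in 1 of 4 LXR genes (Mylip). In these counts a gene with several starts held a motif if any of its promoters did, and 8 members had no entry (Fdps, Fdft1, Sqle, Stard4, Scd1, Scd2, Fads1 and Abcg1). Stretches of 45 bases around the CCAAT box nearest the start are shown for 7 genes with different responses, with CCAAT or its complement ATTGG in capitals.
Idi1, chr13:8885572-8885616, plus strand: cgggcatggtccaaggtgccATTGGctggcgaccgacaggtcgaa
Nsdhl, chrX:72918509-72918553, plus strand: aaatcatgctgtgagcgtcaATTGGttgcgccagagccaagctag
Lss, chr10:76531523-76531567, plus strand: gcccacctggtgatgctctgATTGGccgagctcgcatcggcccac
Dhcr7, chr7:143830145-143830189, plus strand: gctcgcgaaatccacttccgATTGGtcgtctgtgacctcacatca
Insig1, chr5:28071176-28071220, plus strand: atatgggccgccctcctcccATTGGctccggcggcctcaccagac
Fasn, chr11:120824582-120824626, minus strand: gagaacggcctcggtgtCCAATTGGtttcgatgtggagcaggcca
Acly, chr11:100527951-100527995, minus strand: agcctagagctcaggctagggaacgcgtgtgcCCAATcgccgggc
The first 4 are sterol enzymes that were higher in C4 than in C2, as were Fasn and Acly, while Insig1, which holds the same box, did not differ between C4 and C2. In Fasn, 2 boxes on opposite strands share letters. These matches describe letters in a window and were not tested against the differences.

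The roles were set beside each other array by array, as the mean over the genes of a role of the log2 value minus the Ctr mean. This is a description without a test, since the genes had been chosen with results of these data known. For the enzymes up to squalene the means were -0.01, -0.03 and 0.04 on the Ctr arrays, -0.19, -0.29 and -0.23 on the C2 arrays and 0.26, 0.14 and 0.18 on the C4 arrays. For the enzymes after squalene they were -0.02, -0.01 and 0.03 in Ctr, -0.11, -0.13 and -0.08 in C2 and 0.16, 0.20 and 0.19 in C4. For the fatty acid enzymes they were -0.02, -0.03 and 0.05 in Ctr, -0.22, -0.15 and -0.12 in C2 and 0.16, 0.14 and 0.33 in C4. In all 3 roles every C2 array lay below every Ctr array and every C4 array above.

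**Figure D3:**
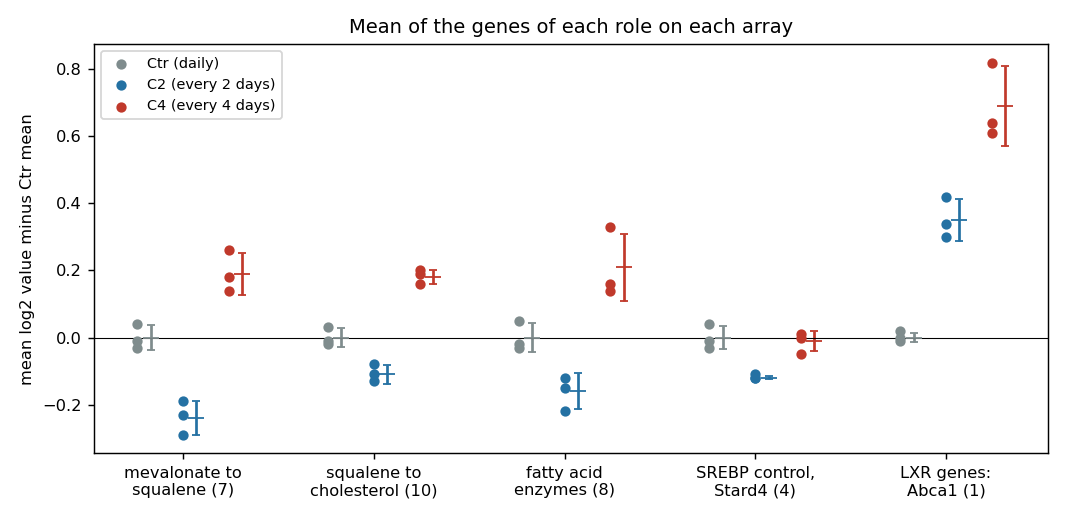
Mean over the genes of a role of the log2 value minus the Ctr mean, 1 point per array, with the mean and SD of each condition (n = 3) beside the points; the number of genes is in parentheses. The C2 arrays lie below and the C4 arrays above Ctr for the enzymes, the C4 mean of the SREBP control genes and Stard4 is near 0, and Abca1 lies above Ctr in both C2 and C4.

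The mean of the sterol enzymes minus that of the fatty acid enzymes was 0 ± 0.011 on the Ctr arrays, 0 ± 0.065 on the C2 arrays and -0.02 ± 0.11 on the C4 arrays (SD, n = 3 each). The sterol and the fatty acid enzymes thus differed from each other in C2 or in C4 by less than the spread between arrays. On C4 replicate 3 the fatty acid mean was 0.14 above the sterol mean, while on C4 replicates 1 and 2 it was 0.04 below. The 4 genes of SREBP control and transport averaged -0.12 ± 0.0046 in C2 and -0.01 ± 0.029 in C4. Abca1, in contrast, was 0.35 ± 0.063 in C2 and 0.69 ± 0.12 in C4.

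Other probe sets of the same genes gave a second reading. Over a signal of 4 there were 60 probe sets of the members, and 30 of them were not the representative of their gene. Of these 30, 23 had the same sign as the representative in C4 against Ctr, 26 in C2 against Ctr and 29 in C4 against C2. Over all 60, 14 were called higher and 1 lower in C4 against Ctr, 1 higher and 9 lower in C2 against Ctr, and 30 higher in C4 against C2, with no call the other way. The 14, 9 and 30 make 23.3%, 15% and 50%, beside 9.04%, 1.35% and 6.82% of all probe sets with a signal over 4. They belong to 8, 6 and 19 genes, since probe sets of the same gene are counted apart here. The 33 probe sets of sterol enzymes were all above 0 in C4 against C2, and 28 of them were below 0 in C2 against Ctr.

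Hmgcs1 had 5 probe sets, of which that of highest mean showed the smallest difference in C4. A dimmer one, 1433446_at, had values of 11.72, 11.77 and 11.82 on the Ctr arrays, 11.52, 11.41 and 11.51 on the C2 arrays and 12.19, 12.29 and 12.26 on the C4 arrays. These ranges did not overlap. It differed by 0.48 in C4 against Ctr (adjusted p = 0.00202), by -0.29 in C2 against Ctr (adjusted p = 0.0365) and by 0.77 in C4 against C2 (adjusted p = 0.000309). Another, 1433443_a_at, was called in all 3 comparisons as well, with 0.26, -0.30 and 0.56. The call of Hmgcs1 therefore depends on which of its probe sets stands for the gene.

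In C4 against Ctr, 7 of the 30 opposed the sign of the representative, and only that of Idi1 was called there. The second probe set of Idi1, 1423804_a_at, had values of 9.81, 10.00 and 9.95 on the Ctr arrays, 9.37, 9.04 and 8.71 on the C2 arrays and 9.24, 9.13 and 9.14 on the C4 arrays. Both C2 and C4 lay below Ctr on all arrays. It differed by -0.75 in C4 against Ctr (adjusted p = 0.042), where the representative differed by 0.13, and by 0.13 in C4 against C2 (adjusted p = 0.877). The direction of Idi1 in C4 against Ctr is thus unsettled on these arrays. The other opposing probe sets belonged to Acly (1439459_x_at, -0.18, adjusted p = 0.252), Cyp51, Hsd17b7, Scd2 and Stard4, none of them called in C4 against Ctr.

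**Figure D4:**
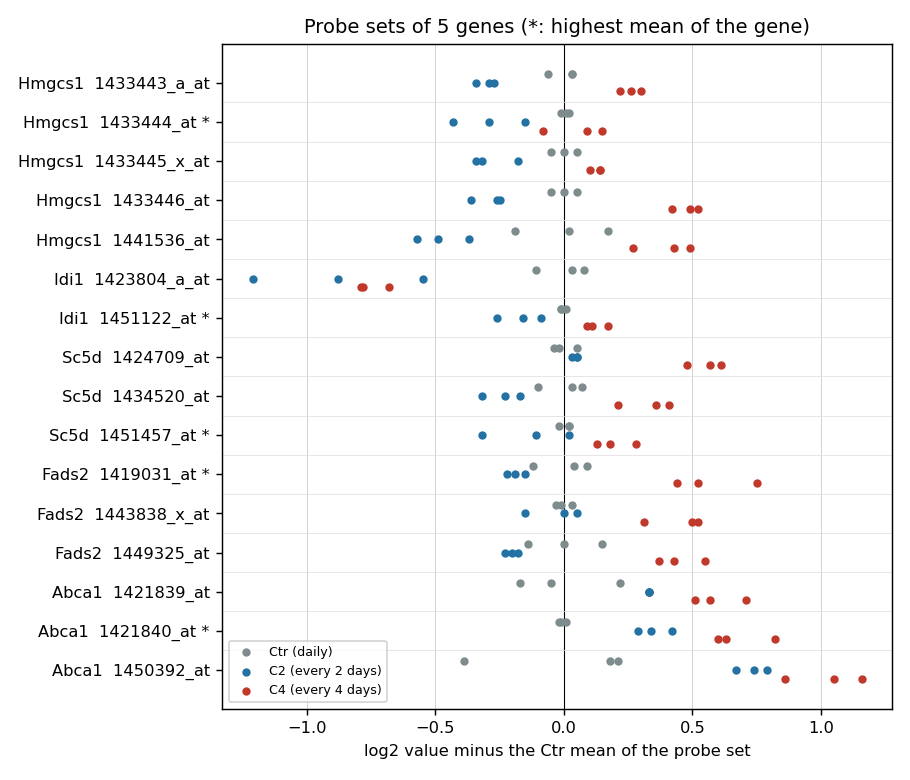
Log2 value of each array minus the Ctr mean of the same probe set, for the probe sets of 5 genes; the asterisk marks the probe set of highest mean, and grey, blue and red points are Ctr, C2 and C4 arrays. The C4 points of 1423804_a_at of Idi1 lie left of zero while those of the starred probe set lie right of it, and those of 1433446_at of Hmgcs1 lie further right than those of the starred one.

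Sc5d, which was not called by its representative, had 2 further probe sets, 1424709_at with 0.56 in C4 against Ctr (adjusted p = 0.000962) and 1434520_at with 0.33 (adjusted p = 0.0445). The 2 other probe sets of Fads2 were both 0.45 higher in C4 than in Ctr, with adjusted p of 0.0151 and 0.0211. Those of Abca1 were 1.03 and 0.60 higher, with adjusted p of 0.0174 and 0.0211. Neither was called in C2 against Ctr, with 0.74 and 0.33 (adjusted p of 0.117 and 0.268). Nor was either called in C4 against C2, with 0.29 and 0.26 (adjusted p of 0.63 and 0.32). A second probe set of Stard4, 1455011_at, differed by -0.44 in C2 against Ctr (adjusted p = 0.0343), and a second one of Scd1, 1415965_at, by -0.49 (adjusted p = 0.0411). Not called there were another of Stard4, 1429239_a_at (-0.40, adjusted p = 0.137), and one of Lss, 1420013_s_at (-0.39, adjusted p = 0.155). Of the 5 other probe sets of genes called in C2 against Ctr, all 5 had the same sign and 1 was also called.

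Genes of the same pathways outside the set were counted as lists, without a test of their difference from the members. The background among probe sets with a signal over 4 was 9.04% higher and 5.98% lower in C4 against Ctr. It was 2.71% and 1.35% in C2 against Ctr, and 6.82% and 5.73% in C4 against C2. Of 13 further sterol genes measured, 1 rose in C4 against Ctr and 2 fell, none was called in C2 against Ctr, and 0 were higher and 3 lower in C4 than in C2, with a median difference of 0.01 in C4 against Ctr. At an unadjusted p under 0.05, limma gave 2 higher and 2 lower in C2 against Ctr and 1 higher and 4 lower in C4 against C2. Dhdds, which takes part in dolichol synthesis, rose by 0.53 (adjusted p = 0.00847). Insig2, a second INSIG gene, fell by 0.76 (adjusted p = 0.0116), and Tmem97, a sterol-related membrane protein, by 0.56 (adjusted p = 0.00281). The 3 sterol genes lower in C4 than in C2 were Mbtps2, Tmem97 and Nus1. They differed by -0.55, -0.41 and -0.32, with adjusted p of 0.0289, 0.0104 and 0.0372. Of 18 further fatty acid genes, 3 rose in C4 against Ctr and 2 fell, and 3 fell in C2 against Ctr, with a median difference of -0.05 in C4. In C4 against C2, 3 of them were higher (Acss2 by 0.30, Acsl3 by 0.23 and Hacd3 by 0.34, with adjusted p of 0.0452, 0.0174 and 0.0148) and 1 was lower, Acsl4. Acss2 and Acsl3 were thus lowest in C2, like most members. Those that rose were Hacd3, a dehydratase of chain elongation, by 0.49 (adjusted p = 0.00332), Mid1ip1, an activator of acetyl-CoA carboxylase, by 0.24 (adjusted p = 0.0454), and Gpam, which starts glycerolipid synthesis, by 0.43 (adjusted p = 0.00471). The acyl-CoA synthetase Acsl4 fell by 1.09 in C4 (adjusted p = 0.00156) and by 0.61 in C2 (adjusted p = 0.0369). The acetyl-CoA synthetase Acss2 fell by 0.32 in C4 (adjusted p = 0.0325) and by 0.62 in C2 (adjusted p = 0.00996), and Acsl3 fell in C2 by 0.34 (adjusted p = 0.0126). Of 10 further LXR genes, 1 rose in C4 against Ctr, Smpdl3a, a phosphodiesterase, by 0.67 (adjusted p = 0.00347). None was called in C2 (2 higher and 0 lower at an unadjusted p under 0.05). At that unadjusted p, 2 were higher and 1 lower in C4 against Ctr, the lower one being Pltp (-0.51, adjusted p = 0.123). Smpdl3a averaged 9.13 in Ctr, 9.42 in C2 and 9.80 in C4, the order of Abca1. It was 0.39 higher in C4 than in C2 (adjusted p = 0.0314). Ch25h and Cyp27a1, which make oxysterols, were at the lowest value.

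Markers of glial cells moved in C4 as well, beside a background of 9.04% higher against Ctr among probe sets with a signal over 4. Against C2 that background was 6.82%. Of 8 astrocyte markers 4 rose in C4 against Ctr, and their summed level on the log2 scale was 14.36 to 14.43 in Ctr, 14.35 to 14.37 in C2 and 14.61 to 14.65 in C4. Of 11 oligodendrocyte lineage markers 5 rose in C4 against Ctr, with a summed level of 13.92 to 14.04 in Ctr, 13.91 to 13.96 in C2 and 14.24 to 14.30 in C4, and 2 fell in C2. In C4 against C2, 3 astrocyte, 5 oligodendrocyte lineage and 5 stem and progenitor markers were higher. The astrocyte enzyme Aldh1l1 averaged 8.12 in Ctr, 7.36 in C2 and 9.23 in C4, with C2 lowest and C4 highest as for most of the synthesis enzymes. It fell by 0.76 in C2 relative to Ctr (adjusted p = 0.0107) and was 1.88 higher in C4 than in C2. The astrocyte markers did not share this order as a list. In C2 against Ctr, Aqp4 differed by -0.45 and S100b by 0.57 (unadjusted limma p of 0.00409 and 0.00222). Of the 8 markers, 1 was higher and 2 were lower there at an unadjusted p under 0.05, with a median of 0.02. Among the oligodendrocyte lineage markers, the 2 that fell in C2, Gpr17 and Cnp, also had C2 lowest and C4 highest. Gpr17 averaged 4.83 in Ctr, 3.12 in C2 and 7.53 in C4, and Cnp 10.85, 10.56 and 11.29. Their limma adjusted p for C2 against Ctr were 0.0272 and 0.0236. Pdgfra and Cspg4 had the same order without a call in C2, and Olig1 differed by -0.01 between C2 and Ctr. Cd68, the only 1 of 9 microglial and macrophage markers with a signal over 4, fell by 2.72 in C4 relative to Ctr (adjusted p = 8.4e-05). The others did not pass that limit, and whether Cd68 reads macrophages here was not tested. Of 11 stem and progenitor markers 5 rose and 1 fell in C4, with a summed level of 16.05 to 16.15 in Ctr, 15.98 to 16.03 in C2 and 16.06 to 16.15 in C4. The summed levels mainly follow the brightest probe sets of a list and do not measure amounts of cells. Olig1 weighs most among the oligodendrocyte lineage markers. Among the stem markers, the bright Vim and Fabp7 differed by -0.40 and 0.34 in C4 against Ctr. The part of the cell mix in the differences of the sterol and fatty acid genes was not tested. In bulk samples, fewer cells of a type and less RNA per cell cannot be told apart.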

How the data were processed

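RNA of aOBSC neurospheres was measured on 9 Affymetrix arrays, 3 per condition. The authors deposited log2 values: they corrected the arrays for background, normalised them across arrays and summarised them per probe set with GCRMA, whose version is not given in the sources used here. Quantile normalisation removes a shift shared by most genes, and very bright probe sets can saturate. Values were used as deposited. Control probe sets (64) were removed, and the other 45037 were tested with no filter. The table paired 34945 probe sets with 1 symbol and 932 with several, and symbols were updated through Entrez numbers. A gene was read from the brightest of its probe sets, by the mean of the 9 arrays.

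Conditions were compared by limma (version 3.58.1, R 4.3.3) in a fit of 9 arrays that gave each condition its mean, with a variance prior that follows intensity (6 residual and 0.574 prior degrees of freedom). The Benjamini-Hochberg adjustment ran over 45037 probe sets for each comparison, and calls were made at 0.05. Intervals are at the 95% level. All 35 genes were named. The members, the further lists and the tests were chosen with earlier results of these data known. The procedure was tested on simulated data for C4 against Ctr over 45037 probe sets: of 50 probe sets at each size, it recovered 1 at a log2 change of 0.25, 20 at 0.5, 41 at 1 and 47 at 2, and it called 7 unchanged ones. So few changed probe sets make the adjusted threshold stricter than in the real data. Arrays give no read depth, and precision is limited by having 3 arrays per condition.

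The alternatives tried were other ways to choose the probe set of a gene, a filter on dim probe sets (over 4 on at least 3 arrays), other variance priors, only the 2 conditions compared, the replicate number as a block, median centring, the methods' difference of at least 1 and leaving out each array. Promoters were taken from RefSeq GRCm38.p6 (300 bases, 27 of 35 genes matched).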

Additional observations from a re-analysis of the deposited data

How the results depend on the processing

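The number of the 33 genes called in C4 against Ctr was 6. It was 12 with the mean of the probe sets of a gene, 10 with only probe sets over 4 on at least 3 arrays, 3 with a robust prior, 2 with only the arrays of both conditions and 0 at a difference of at least 1. It was 4 to 5 with 1 array left out. In C2 against Ctr the number was 3. It was 7 with the mean of the probe sets, 11 with the dim filter, 8 with median centring, 0 with a robust prior and 0 at a difference of at least 1. With 1 array left out it was 0 to 3, and it was 0 without C2 replicate 3. In C4 against C2 it was 16, and 9 with a robust prior, 9 with only the arrays of both conditions, 0 at a difference of at least 1 and 11 to 13 with 1 array left out.

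Over all probe sets, 2833 were called in C4 against Ctr, 767 in C2 against Ctr and 2363 in C4 against C2. In that order the counts were 1720, 374 and 1466 without the probe sets that may read several transcripts, 4697, 1825 and 3908 with the dim filter, 1386, 45 and 1178 with a robust prior, 1618, 371 and 1404 with only the arrays of both conditions, and 312, 38 and 303 at a difference of at least 1. With 1 array left out they were 1818 to 2585, 323 to 584 and 1485 to 2091. Why these counts differ was not tested, except that fewer probe sets or fewer arrays enter by construction.

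With the replicate number as a block, 5 genes were called in C4 against Ctr, 1 in C2 against Ctr and 13 in C4 against C2, and 237 of all probe sets in C2 against Ctr. Arrays with the same number correlated in their deviations from the condition means with r between -0.04 and 0.13. These values lay above the best r with another number for some arrays and below it for others. They gave no clear sign of pairing. With so few arrays per condition they cannot exclude a weak one, and the labels leave pairing open. The 1 gene called in C2 against Ctr was Msmo1, so Lss, Stard4 and Abca1 all lost their call there, and of the 13 genes 12 were also called without the block, Msmo1 being the addition.

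Idi1 reversed in C4 against Ctr, with -0.31 (adjusted p = 0.0847) for the mean of its probe sets and -0.75 (adjusted p = 0.042) for that of largest spread. Hmgcs1 moved to 0 (adjusted p = 0.985) after median centring. Nsdhl and Abca1 in C4 against Ctr, and Fdps, Fdft1, Lss, Nsdhl, Dhcr7, Stard4, Scd1 and Fads2 in C4 against C2, kept their call under every alternative fit run, though not at a difference of at least 1. The difference between sterol and fatty acid enzymes stayed within -0.05 to 0.04 in C4 and -0.04 to 0.03 in C2 with 1 array left out. In the simulation, changes of 0.25 were mostly missed with 3 arrays per condition (1 of 50 recovered), as were most of 0.5 (20 of 50). Only 50 probe sets were changed at each size, while 2833 were called in C4 against Ctr, so its adjusted threshold was stricter. Its recovery therefore does not give the share of such changes missed in these data. Fdft1, for example, was called in C4 against Ctr at 0.24 (limma adjusted p = 0.00914).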
